A study of Mus musculus with 72 samples.

Results

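Choroid plexus transcripts were measured in brain RNA as a gauge of how much choroid plexus each brain sample held. The set holds 10 genes chosen by name as markers of choroid plexus, *Ttr*, *Enpp2*, *Sostdc1*, *Folr1*, *Aqp1*, *Kcnj13*, *Kcne2*, *Clic6*, *Cldn2* and *Otx2*, and all 10 were found by symbol among the 15431 genes of the brain table. All 10 also passed the filter on low reads that left 15401 genes for testing. The brain was sequenced in 36 mice, 1 library per mouse, in 4 groups of 12 KlHET NMES, 12 KlHET control, 6 WT NMES and 6 WT control libraries. The figure legends of the study give fewer KlHET control mice than the 12 used here, and the sources at hand name no library as left out. KlHET mice carry 1 disrupted copy of *Kl*, the gene of the anti-ageing protein KLOTHO, in all cells (strain B6;129S5-Kl tm1Lex), and WT mice carry none. NMES mice received neuromuscular electrical stimulation of the hind legs at 9 mA under isoflurane in 5 sessions, given every other day, whereas control mice received 15 min of isoflurane on the same days. All mice were 2 months old, were perfused, and gave their tissue 24 h after the last session. The labels call the tissue brain, and the methods of the study name prefrontal cortex as the piece used, a region that lies apart from the choroid plexus. The sample names of the WT and the KlHET mice come from 2 separate number series, and the labels do not say what the series stand for. Genotype thus cannot be told apart from anything else that differs between the series. Libraries with *Xist* and libraries with Y-linked transcripts as the higher signal were present in every group (8 and 4 in KlHET NMES, 7 and 5 in KlHET control, 3 and 3 in WT NMES, 3 and 3 in WT control).

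The choroid plexus is a tuft of secretory epithelium that hangs in the brain ventricles and makes cerebrospinal fluid. Its epithelial cells join tightly to one another, move ions and water from blood to ventricle, and secrete carrier proteins, of which transthyretin is by far the most abundant. Because the epithelium expresses such genes at very high levels and cortex hardly at all, a small fragment carried along in a dissection is visible in bulk RNA. Bulk RNA cannot tell more choroid plexus cells from more RNA per such cell.

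Each level is given in CPM, the reads of a gene scaled to an equal total in every library. The brain libraries held 17.0 to 28.0 M reads, and each CPM value could be turned back into whole reads. *Kl* itself, which choroid plexus epithelium expresses strongly, ranged from 1.12 to 19.3 CPM (median 2.74) in KlHET NMES brains, from 1.93 to 31.1 CPM (median 2.85) in KlHET control brains, from 2.41 to 7.48 CPM (median 3.39) in WT NMES brains and from 1.31 to 6.53 CPM (median 3.25) in WT control brains, so that its level in bulk brain did not separate the genotypes. The values of 12.3 CPM and above were all from the 5 brains with the most *Ttr*, all of them KlHET. The comparison thus mixes genotype with how much choroid plexus each sample held.

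The members lie on 9 chromosomes. Only *Kcne2* and *Clic6* are near each other, 200013 bases apart on chromosome 16 of GRCm38 (mm10). RefSeq promoter windows for GRCm38.p6 were at hand for 5 of the 10 members, and the 250 bases before the start of 4 of them are shown because the members in question either moved together across the libraries (*Kcnj13*, *Kcne2*, *Cldn2*) or did not (*Aqp1*). Capitals mark the letters TATAAA, the core of a TATA box.
Kcnj13, chr1:87394730-87394979, minus strand: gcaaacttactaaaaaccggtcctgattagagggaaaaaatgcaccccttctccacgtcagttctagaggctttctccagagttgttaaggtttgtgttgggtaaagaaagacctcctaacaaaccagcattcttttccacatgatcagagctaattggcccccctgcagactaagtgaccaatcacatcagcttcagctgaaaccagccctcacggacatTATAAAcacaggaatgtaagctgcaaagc
Kcne2, chr16:92292139-92292388, plus strand: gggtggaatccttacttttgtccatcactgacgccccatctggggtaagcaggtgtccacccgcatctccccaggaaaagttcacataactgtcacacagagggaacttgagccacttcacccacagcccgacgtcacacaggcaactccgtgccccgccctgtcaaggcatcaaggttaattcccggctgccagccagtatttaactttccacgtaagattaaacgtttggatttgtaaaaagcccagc
Cldn2, chrX:139800558-139800807, plus strand: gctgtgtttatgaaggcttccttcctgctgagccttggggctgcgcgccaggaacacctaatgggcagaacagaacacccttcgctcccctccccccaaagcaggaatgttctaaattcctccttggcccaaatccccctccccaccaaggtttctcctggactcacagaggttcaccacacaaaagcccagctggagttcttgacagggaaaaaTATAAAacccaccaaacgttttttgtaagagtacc
Aqp1, chr6:55336049-55336298, plus strand: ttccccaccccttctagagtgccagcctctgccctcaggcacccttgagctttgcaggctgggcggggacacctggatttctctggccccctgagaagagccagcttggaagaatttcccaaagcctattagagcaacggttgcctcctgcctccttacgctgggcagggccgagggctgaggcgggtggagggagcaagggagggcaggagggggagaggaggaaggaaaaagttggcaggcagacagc
TATAAA stood at -29 to -24 bases from the start of *Kcnj13* and at -35 to -30 bases from that of *Cldn2*, and neither *Kcne2* nor *Aqp1* held these letters on either strand. Of the 32851 windows of 250 bases in the same table, 12.4% held TATAAA. The letters TAATCC, the core motif of OTX2, were absent from both strands of the 4 windows and present in 6.25% of all windows. The member with a window that is not shown, *Otx2*, held TATAAA at -192 to -187 bases from the start at the end of its locus and TAATCC at -211 to -206 bases from an internal start. These are matches of letters only, and both motifs were searched on both strands.

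*Ttr*, the gene of the thyroxine and retinol carrier transthyretin (chr18:20664209-20674326, plus strand), was the most variable member. It ranged from 0.0513 to 895 CPM (median 3.81) in KlHET NMES brains, from 0.293 to 1822 CPM (median 2.24) in KlHET control brains, from 0.352 to 94.2 CPM (median 1.24) in WT NMES brains and from 0.304 to 64.7 CPM (median 1.06) in WT control brains. The lowest library held 1 read of the gene and the highest 40203 reads. A level under 1 CPM was found in 6 of 12 KlHET NMES, 5 of 12 KlHET control, 3 of 6 WT NMES and 3 of 6 WT control brains, 17 libraries in all, in which *Ttr* rested on 1 to 21 reads. A level above 10 CPM was found in 5 of 12, 5 of 12, 1 of 6 and 1 of 6 brains of the same groups. Every group thus held both brains with next to no *Ttr* and at least 1 brain with a clear signal, and the groups overlapped. The 5 libraries above 500 CPM were all from KlHET mice, namely KlHET NMES 9 (895 CPM), KlHET NMES 6 (891 CPM) and KlHET NMES 3 (849 CPM), and KlHET control 7 (1822 CPM) and KlHET control 9 (765 CPM).

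**Figure D1:**
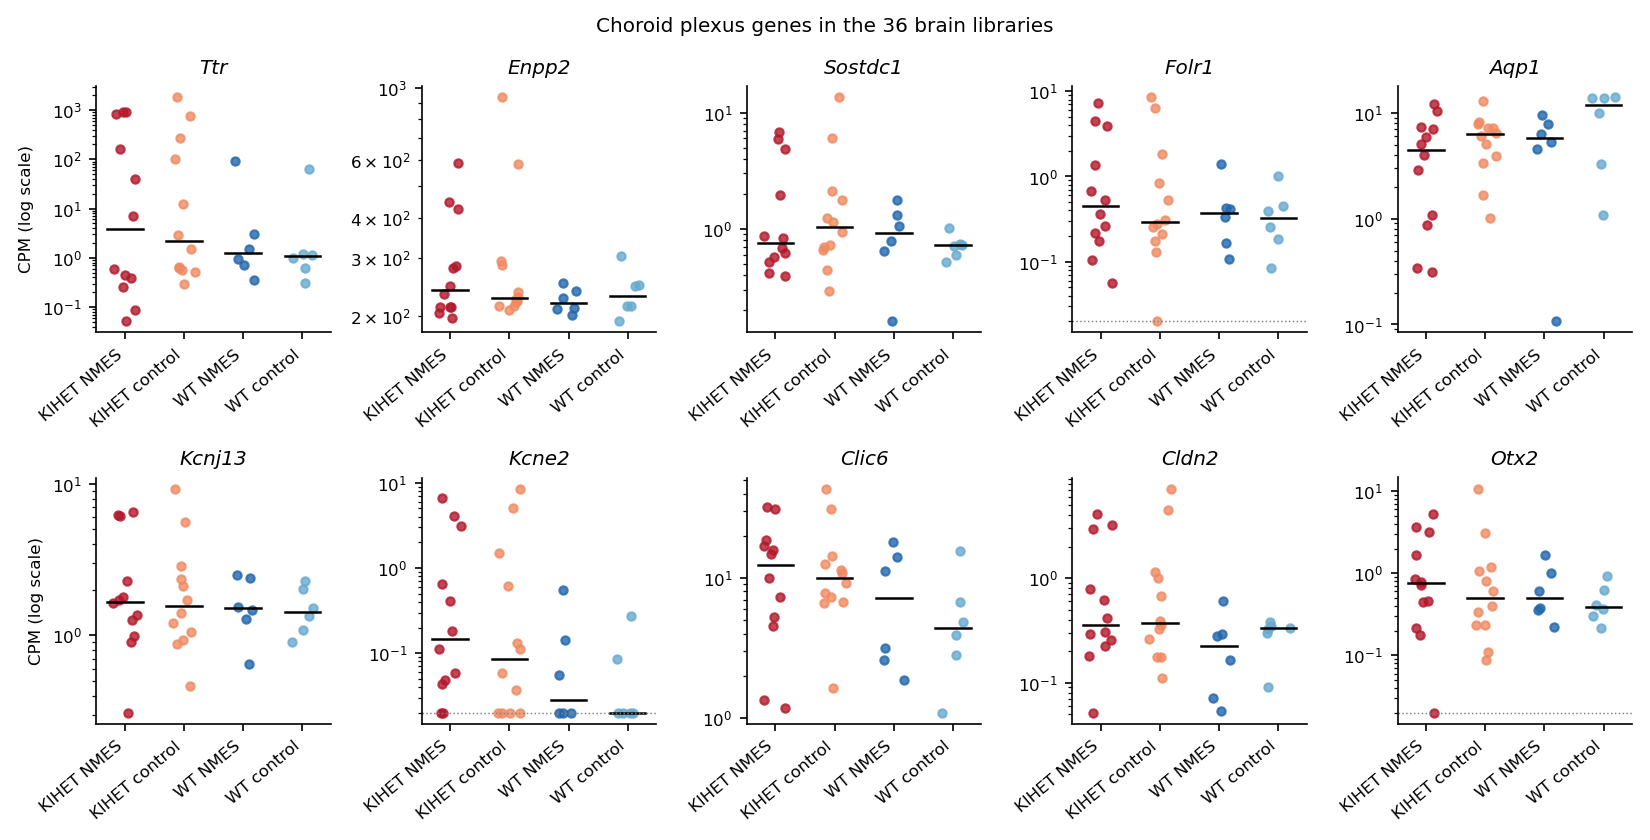
Level of the 10 members in CPM (log scale) in each of the 36 brain libraries, by group. Points are libraries, black lines are group medians, and points on the dotted line are libraries with 0 reads, drawn at the foot of the axis. The groups overlap for every member, and the highest points of all members except Aqp1 belong to a few KlHET NMES and KlHET control brains.

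The other secreted products followed at lower amplitude. *Enpp2*, the gene of the lysophosphatidic acid producing enzyme autotaxin (chr15:54838901-54952789, minus strand), ranged from 196 to 588 CPM (median 240.3) in KlHET NMES brains, from 208 to 935 CPM (median 227) in KlHET control brains, from 202 to 253 CPM (median 219) in WT NMES brains and from 192 to 306 CPM (median 230.2) in WT control brains. Its highest 5 values were those of the same 5 libraries that led for *Ttr*, yet no library fell below 192 CPM. *Sostdc1*, a secreted inhibitor of BMP and WNT signalling (chr12:36314169-36318452, plus strand), ranged from 0.393 to 6.87 CPM (median 0.757) in KlHET NMES brains, from 0.293 to 13.6 CPM (median 1.03) in KlHET control brains, from 0.160 to 1.76 CPM (median 0.915) in WT NMES brains and from 0.515 to 1.02 CPM (median 0.718) in WT control brains. Each of the 5 *Ttr*-rich brains held at least 4.82 CPM of *Sostdc1*, and no other brain did.

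Among transporters and channels, *Folr1*, the folate receptor that carries folate across the epithelium (chr7:101858331-101870788, minus strand), ranged from 0.0562 to 7.20 CPM (median 0.446) in KlHET NMES brains, from 0 to 8.52 CPM (median 0.293) in KlHET control brains, from 0.107 to 1.42 CPM (median 0.371) in WT NMES brains and from 0.0842 to 1.02 CPM (median 0.325) in WT control brains. *Kcne2*, a small beta subunit of potassium channels (chr16:92292389-92298133, plus strand), was the cleanest of the set, since it was near absent where *Ttr* was low. It ranged from 0 to 6.63 CPM (median 0.147) in KlHET NMES brains, from 0 to 8.52 CPM (median 0.0848) in KlHET control brains, from 0 to 0.559 CPM (median 0.0280) in WT NMES brains and from 0 to 0.270 CPM (median 0) in WT control brains. No read of *Kcne2* was found in 13 libraries (2, 4, 3 and 4 of these groups), and a count of 0 allows up to 0.126 to 0.176 CPM there (3 reads, counting error only). *Kcnj13*, the inward rectifier potassium channel Kir7.1 of the apical membrane (chr1:87384577-87394729, minus strand), ranged from 0.308 to 6.54 CPM (median 1.67) in KlHET NMES brains, from 0.465 to 9.29 CPM (median 1.56) in KlHET control brains, from 0.643 to 2.50 CPM (median 1.505) in WT NMES brains and from 0.901 to 2.28 CPM (median 1.43) in WT control brains. For all 3 genes the *Ttr*-rich brains were again the highest 5.

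*Clic6*, a member of the chloride intracellular channel family (chr16:92498147-92541241, plus strand), ranged from 1.18 to 31.9 CPM (median 12.4) in KlHET NMES brains, from 1.64 to 43.4 CPM (median 10.0) in KlHET control brains, from 1.88 to 18.1 CPM (median 7.14) in WT NMES brains and from 1.09 to 15.5 CPM (median 4.39) in WT control brains. It was spread widely within every group. *Aqp1*, the water channel of the apical membrane (chr6:55336299-55348555, plus strand), ranged from 0.316 to 12.2 CPM (median 4.50) in KlHET NMES brains, from 1.02 to 12.9 CPM (median 6.26) in KlHET control brains, from 0.107 to 9.59 CPM (median 5.83) in WT NMES brains and from 1.08 to 14.1 CPM (median 11.9) in WT control brains. Its highest 3 values were in WT control brains with little *Ttr*, and the brain with the most *Ttr*, KlHET control 7, held 7.21 CPM of *Aqp1*.

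The tight junction gene and the regulator were highest in the same brains as the secreted group. *Cldn2*, a claudin that forms pores for cations between epithelial cells (chrX:139800808-139811386, plus strand), ranged from 0.0513 to 4.17 CPM (median 0.359) in KlHET NMES brains, from 0.111 to 7.21 CPM (median 0.370) in KlHET control brains, from 0.0533 to 0.602 CPM (median 0.223) in WT NMES brains and from 0.0901 to 0.378 CPM (median 0.330) in WT control brains. *Otx2*, the homeobox transcription factor needed to form and keep the choroid plexus (chr14:48656781-48667644, minus strand), ranged from 0 to 5.31 CPM (median 0.759) in KlHET NMES brains, from 0.0877 to 10.7 CPM (median 0.503) in KlHET control brains, from 0.220 to 1.68 CPM (median 0.495) in WT NMES brains and from 0.217 to 0.917 CPM (median 0.387) in WT control brains. Both had their highest value in KlHET control 7. For 9 of the 10 members, all but *Aqp1*, KlHET control 7 was the highest library and the 5 highest libraries were the 5 *Ttr*-rich brains. Divided by exon length, the levels in that library were 1537 CPM per kb for *Ttr*, 162 for *Enpp2*, 11.1 for *Clic6*, 7.61 for *Sostdc1*, 7.32 for *Kcnj13*, 4.82 for *Kcne2*, 3.71 for *Folr1*, 2.74 for *Aqp1*, 2.53 for *Otx2* and 2.17 for *Cldn2*. Transthyretin RNA thus stood far above the rest of the set per length.

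A choroid plexus score was taken per library as the mean over the 10 members of log2(CPM + 0.5), scaled by TMM, each member centred on its mean over the 36 libraries. The score ranged from -1.28 to 2.38 (mean 0.18 ± 1.28, SD, n = 12) in KlHET NMES brains, from -0.85 to 2.96 (mean 0.21 ± 1.25, SD, n = 12) in KlHET control brains, from -0.75 to 0.80 (mean -0.37 ± 0.58, SD, n = 6) in WT NMES brains and from -0.72 to 0.26 (mean -0.42 ± 0.35, SD, n = 6) in WT control brains. The 5 *Ttr*-rich brains scored 1.95 to 2.96, the next was KlHET control 1 at 1.04, and the medians of the 4 groups, -0.37, -0.41, -0.58 and -0.49, lay close together. Neither the mitochondrial share of reads (1.67% to 5.65%, Spearman rho with the score 0.23), nor the number of reads (rho 0.31), nor the TMM factor (0.964 to 1.07, rho 0.20) followed the score closely over the 36 libraries, given as a description.

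To see whether the members moved as a set, each was compared with the score of the other 9 across the 36 libraries. These correlations are descriptions, since the points share depth and dissection. Pearson's r on the log2 scale was 0.96 for *Kcne2*, 0.95 for *Cldn2*, 0.94 for *Folr1*, 0.93 for *Sostdc1*, 0.91 for *Otx2*, 0.89 for *Ttr*, 0.86 for *Enpp2*, 0.84 for *Kcnj13* and 0.70 for *Clic6*. *Aqp1* stood apart at -0.09 (Spearman rho -0.29). Of the 45 pairs of members, the 36 without *Aqp1* had r from 0.50 to 0.95 (median 0.86) and the 9 with it from -0.37 to 0.28 (median -0.11).

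The 5 *Ttr*-rich brains carried much of this likeness. Over the other 31 libraries, r was 0.80 for *Kcne2*, 0.79 for *Ttr*, 0.77 for *Cldn2*, 0.74 for *Folr1*, 0.69 for *Sostdc1* and 0.67 for *Otx2*. It was 0.47 for *Clic6*, 0.41 for *Kcnj13*, 0.24 for *Enpp2* and -0.33 for *Aqp1*. Spearman's rho over the same 31 libraries was lower, at 0.60 for *Cldn2*, 0.56 for *Otx2*, 0.54 for *Ttr* and 0.49 for *Sostdc1*. It was 0.37 for *Kcne2*, 0.36 for *Clic6*, 0.28 for *Folr1*, 0.22 for *Kcnj13*, -0.12 for *Enpp2* and -0.36 for *Aqp1*, so that the shared order outside the 5 brains was weak for most members.

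**Figure D2:**
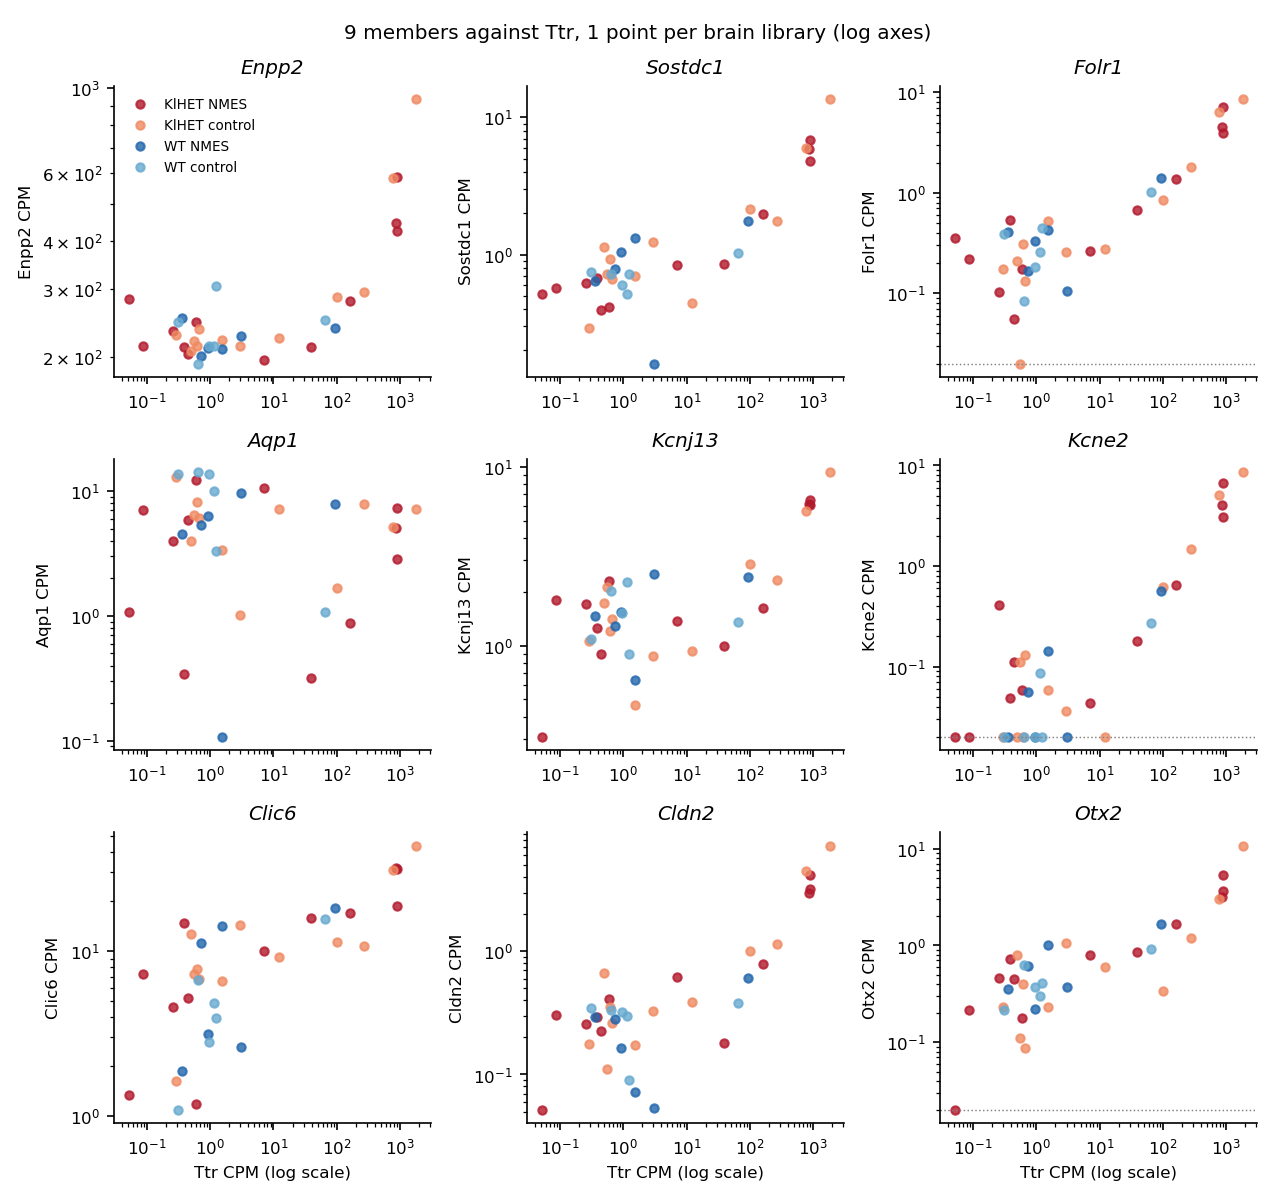
Level of the other 9 members against that of Ttr in the same library, in CPM on log axes, 1 point per brain library, coloured by group. Points on the dotted line had 0 reads. Folr1, Kcne2, Cldn2, Sostdc1 and Otx2 rise with Ttr toward the 5 libraries at the right, Enpp2 and Kcnj13 are flat until the right end, and Aqp1 shows no such rise.

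The members differed in how much remained when *Ttr* was low. In the 23 libraries with under 5 CPM of *Ttr*, *Enpp2* had a median of 214 CPM (range 192 to 306), *Aqp1* of 6.05 CPM (0.107 to 14.1), *Clic6* of 5.22 CPM (1.09 to 14.9) and *Kcnj13* of 1.40 CPM (0.308 to 2.50). *Sostdc1* had a median of 0.678 CPM there, *Otx2* of 0.369 CPM, *Cldn2* of 0.280 CPM, *Folr1* of 0.218 CPM and *Kcne2* of 0 CPM (0 to 0.414). A straight line of each member on the mean relative level of the other 9 met the axis at 180.2 CPM for *Enpp2*, 6.20 CPM for *Aqp1*, 5.04 CPM for *Clic6* and 0.828 CPM for *Kcnj13*, and at or below 0 for the remaining 6. *Enpp2*, *Aqp1*, *Clic6* and *Kcnj13* were thus the members with the highest levels at low *Ttr* and with an intercept above 0. No library held 0 of the other members, so the lines reach past the data. An intercept at or below 0 thus does not show that a member lacks a level apart from the set. *Sostdc1*, for example, was at 0.160 CPM or above in all 36 libraries. As background, *Enpp2* is also expressed by oligodendrocytes.

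Where choroid plexus signal was strong, the level of each member was set against that of *Ttr*. In the 5 *Ttr*-rich brains, each 1000 CPM of *Ttr* came with 4.38 to 8.25 CPM of *Folr1*, 5.41 to 7.84 CPM of *Sostdc1*, 5.10 to 7.36 CPM of *Kcnj13*, 3.48 to 7.41 CPM of *Kcne2*, 3.52 to 5.91 CPM of *Cldn2* and 3.75 to 5.92 CPM of *Otx2*. *Clic6* came at 21.0 to 40.7 CPM and *Enpp2* at 478 to 764 CPM, including the levels both genes also had without *Ttr*. *Aqp1*, which did not follow the set over all libraries, came at 3.20 to 8.20 CPM. These ranges alone thus do not tell which members go with *Ttr*. The 3 KlHET NMES and the 2 KlHET control brains were not separated in the *Ttr* level itself, at 849 to 895 CPM against 765 and 1822 CPM.

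*Aqp1* and *Clic6* had partners outside the set. These partners were looked for after the values of both genes were seen, and the other members were not searched in this way. The genes with the highest Spearman rho with *Aqp1* over the 36 libraries were *Stoml3* (0.94), *Npr1* (0.93), *Nppa* (0.93), *Slc43a3* (0.93) and *Th* (0.92), with *Eomes* (0.92) among the next. *Th*, the gene of the enzyme that limits dopamine synthesis, and *Eomes*, a T-box transcription factor, are both known in the olfactory bulb. *Th* ranged from 4.36 to 90.2 CPM and *Eomes* from 0.529 to 74.3 CPM over the 36 brains. The *Ttr*-rich KlHET NMES 3 and 6 and KlHET control 7 and 9 held 1.73 to 3.72 CPM of *Eomes*. Their *Aqp1* levels were 5.03, 2.85, 7.21 and 5.10 CPM. KlHET NMES 4, 5, 11 and 12, KlHET control 8, WT NMES 2 and WT control 4 held less *Ttr* and 0.529 to 5.45 CPM of *Eomes*. In them *Aqp1* was at 0.107 to 1.08 CPM. A link of *Aqp1* with *Ttr* at low *Eomes* was not tested. In the 23 libraries with little *Ttr*, *Clic6* was most like *Doc2b*, *Penk*, *Asic4*, *Tac1* and *Isl1* (rho 0.97 each), of which *Penk* and *Tac1*, the genes of enkephalin and substance P precursors, are known in striatal neurons. Over all 36 libraries the rho of *Clic6* was 0.68 with *Penk* and 0.74 with *Ttr*. Among the members, *Clic6* was most like *Otx2* (rho 0.85) and *Sostdc1* (rho 0.80). The rho of *Otx2* and of *Sostdc1* with *Ttr* was lower, at 0.75 and 0.72. Whether *Otx2* and *Sostdc1* share the partners of *Clic6* was not tested.

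**Figure D3:**
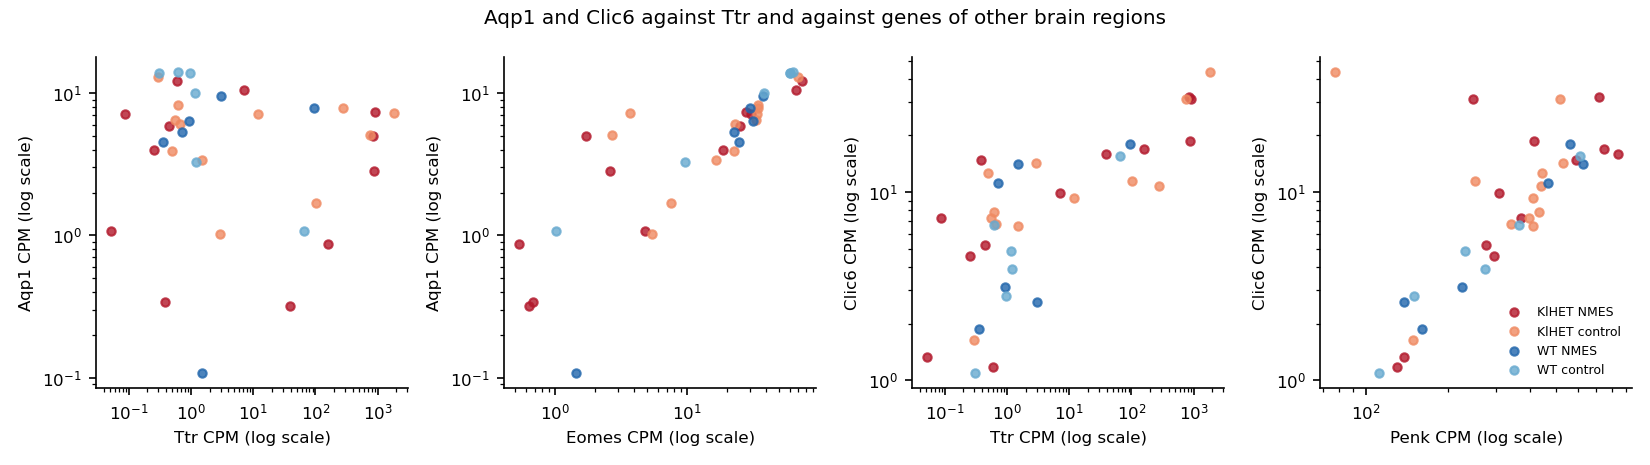
Aqp1 against Ttr and against Eomes, and Clic6 against Ttr and against Penk, in CPM on log axes, 1 point per brain library, coloured by group. Over the 36 libraries Aqp1 follows Eomes (Spearman rho 0.92) and has a rho of -0.16 with Ttr. Clic6 follows both Ttr (rho 0.74) and Penk (rho 0.68).

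Other genes of the choroid plexus epithelium went with the members. A list of 34 further epithelial genes had 33 in the table and 32 tested, and its score had Pearson's r of 0.97 with that of the members (0.86 without the 5 *Ttr*-rich brains). Of its genes, 13 had r above 0.8. *Kl* (1.12 to 31.1 CPM, r 0.92), *Slc4a5*, a bicarbonate transporter (0 to 11.7 CPM, r 0.97), *F5*, coagulation factor V (0.194 to 15.2 CPM, r 0.95), and *Prlr*, the prolactin receptor (0.172 to 30.4 CPM, r 0.82), each had their highest level in KlHET control 7. The 4 most abundant genes of the list were less alike, with *Cab39l* at r 0.79 and *Ezr*, *Igfbp2* and *Sulf1* at -0.02, -0.16 and 0.15. Among 14468 tested genes, with the members and predicted symbols (Gm and Rik names) left out, the 12 most like the score were *Kif19a*, *Foxj1*, *Hdc*, *Kl*, *Gatm*, *Tfeb*, *Lbp*, *Slc39a4*, *Cfap126*, *Efnb3*, *Rdh5* and *Mc3r* (rho 0.83 to 0.77). *Foxj1*, the master factor of motile cilia, and *Cfap126*, a ciliary protein, are genes of ependymal and other ciliated cells. Of all 15391 tested genes that are not members, 97 had a rho above 0.7 with the score and 17 one below -0.7.

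The deposited brain table carries a cell type column of the authors, in which 39 genes are marked as choroid plexus epithelial. Of the members, 7 bear that mark, and *Ttr*, *Aqp1* and *Cldn2* do not. Of the 32 marked genes that are not members, 8 had r above 0.8 with the score, namely *Prr32*, *F5*, *Steap1*, *Kl*, *Krt18*, *Rdh5*, *Wfdc2* and *Prlr*. At the other end stood *Ptgds* (r -0.28), the gene of a prostaglandin synthase of meninges and oligodendrocytes, *Igfbp2* (r -0.16) and *Ppp1r1b* (r 0.02), the gene of the striatal signalling protein DARPP-32.

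Markers of neighbouring tissue moved with the choroid plexus score in part. The ependyma list had r of 0.90 (0.70 without the 5 *Ttr*-rich brains), and its summed level ranged from 13.2 to 84.8 CPM in KlHET NMES brains, 16.8 to 132.3 CPM in KlHET control brains, 16.4 to 50.2 CPM in WT NMES brains and 19.4 to 36.8 CPM in WT control brains. The thalamus list had r of 0.85 (0.48 without the 5 brains), with sums of 78.2 to 491 CPM, 80.6 to 882 CPM, 76.6 to 189 CPM and 79.2 to 88.0 CPM in the same groups. The oligodendrocyte list had r of 0.82 (0.53 without the 5 brains), hippocampus 0.69 (0.27), habenula 0.56 (-0.23) and hypothalamus 0.48 (0.30). Cortex had r of -0.43 (-0.39), blood -0.48 (-0.53), fibroblasts of the choroid stroma and leptomeninges -0.36 (0.15), striatum 0.14 (0.42), endothelium -0.06 (0.02) and retinal pigment epithelium, a tissue that shares several members, -0.03 (0.18). Liver is the other main source of *Ttr* in the body, and of 8 liver markers 7 were not in the table, and *Apoa2* was at 0.0589 to 1.45 CPM. For hindbrain and cerebellum 3 of 11 genes were in the table and 2 were tested (r 0.69, and 0.20 without the 5 brains).

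KlHET control 7 was the extreme case. In it *Slc17a6*, a glutamate transporter of thalamic neurons, was at 328 CPM (median of all brains 29.3), *Prkcd* at 182 CPM (median 12.1) and *Foxj1* at 32.0 CPM (median 7.09), each the highest of the 36 brains. *Tbr1*, a transcription factor of cortical neurons, was at 20.5 CPM (median 147) and *Lamp5* at 40.2 CPM (median 177), each the lowest. The cortex list was not uniform there. *Rasgrf2* was at 193 CPM (median 180) and *Rspo1* at 12.6 CPM (median 6.23), and its other genes were below their medians. The link between thalamus and choroid plexus was not complete, as WT NMES 2 had a thalamus score of 0.79 with a choroid plexus score of -0.65. The part of the sampled region in the levels of the members was not tested.

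**Figure D4:**
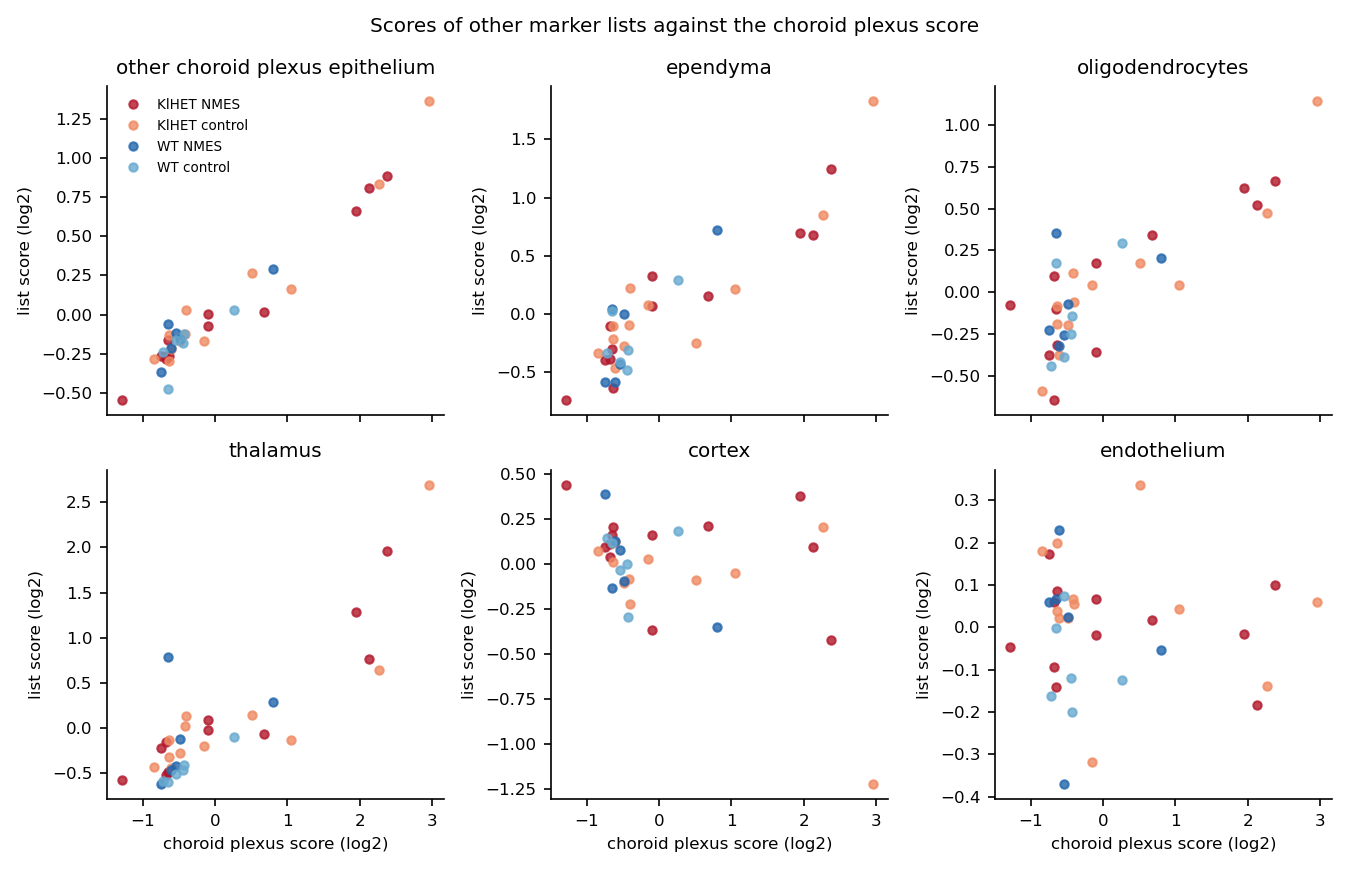
Score of 6 marker lists against the choroid plexus score, 1 point per brain library, coloured by group. Scores are mean log2 levels centred over the 36 libraries. Other epithelial genes (r 0.97), ependyma (0.90), thalamus (0.85) and oligodendrocytes (0.82) rise with the score, endothelium does not (-0.06), and cortex is lowest in the library with the highest score.

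The groups were then compared to ask whether NMES or genotype went with the level of choroid plexus genes in brain. No member passed an adjusted p of 0.05 in any of the comparisons (limma on log2(CPM + 0.5), Benjamini-Hochberg over 15401 genes), and 0 of 10 had an unadjusted p below 0.05 in any of them. After NMES in KlHET mice, 0% of all genes passed the adjusted p and 2.03% an unadjusted p of 0.05. The log2 difference of *Ttr* between KlHET NMES and KlHET control brains was 0.09 ± 1.55 (SE, 95% interval -3.08 to 3.25, adjusted p = 1.00 by limma). The median difference of the 10 members was 0.02, with 5 above 0, against a median of 0.00 over all genes. *Aqp1* had the largest difference, -0.58 ± 0.50 (SE, interval -1.58 to 0.43), and *Enpp2* the tightest interval, -0.43 to 0.39. The width of the *Ttr* interval shows that even a several-fold change of *Ttr* was not detectable against the spread between these brains.

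In WT mice, 0% of genes passed the adjusted p and 2.77% the unadjusted p. *Ttr* differed by 0.34 ± 2.20 (SE, interval -4.14 to 4.81) between WT NMES and WT control brains, and the median of the members was 0.10, with 7 above 0. *Aqp1* was at -0.70 ± 0.70 (SE, interval -2.13 to 0.72). Over both genotypes, where 0% and 2.1% of genes passed, *Ttr* differed by 0.21 ± 1.35 (SE) between NMES and control brains and the median of the members was 0.08. The response to NMES in KlHET less that in WT mice, for which 0% and 2.94% of genes passed, was -0.25 ± 2.69 (SE) for *Ttr*, and the members had a median of 0.01.

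Between genotypes the members lay above 0 more often. In control mice, where 0.0714% of genes passed the adjusted p and 10.4% the unadjusted p, 9 of 10 members were above 0 in KlHET control over WT control brains, with a median of 0.59 against 0.00 over all genes. The median was 0.34 without KlHET control 7, and on the recovered reads it was 1.71 with edgeR and 1.69 with DESeq2. The cause of that gap was not tested. *Ttr* differed by 2.13 ± 1.90 (SE, interval -1.74 to 6.01, adjusted p = 0.698 by limma), by 1.47 without KlHET control 7 and by 3.08 without WT control 4. With edgeR and DESeq2 it differed by 4.37 and 4.33, and DESeq2 gave *Ttr* no adjusted p in any comparison. *Clic6* had the smallest unadjusted p of the set, 0.0791, at 1.10 ± 0.61 (SE, limma adjusted p = 0.531), and 11 of 12 KlHET control brains were above the WT control mean. With single libraries left out, its unadjusted p fell as low as 0.0288 and its adjusted p stayed at or above 0.378. *Aqp1* was the exception at -0.47 ± 0.61 (SE).

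In stimulated mice, where 0.0974% of genes passed the adjusted p and 4.3% the unadjusted p, 9 of 10 members were again above 0 in KlHET NMES over WT NMES brains, with a median of 0.47. The median was 0.31 without KlHET NMES 9, 1.03 with edgeR and 1.05 with DESeq2. *Ttr* differed by 1.88 ± 1.90 (SE, interval -1.99 to 5.76), by 1.31 without KlHET NMES 6 and by 2.85 without WT NMES 5, and by 3.81 with edgeR and 3.83 with DESeq2. *Aqp1* differed by -0.35 ± 0.61 (SE). These direction counts are no test, since 9 of the 10 members moved together from library to library. The 32 tested genes of the further epithelial list had medians of 0.29 (28 above 0) in control and 0.15 (22 above 0) in stimulated mice, and 0 passed the adjusted p in either, with 3 and 1 at an unadjusted p under 0.05. The thalamus list lay above 0 in the same comparisons, with medians of 0.56 (8 of 8 genes) and 0.23 (8 of 8 genes), and the ependyma list with 0.34 and 0.18.

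A permutation test of *Ttr* alone on the log2 scale, 2-sided and adjusted over 4 comparisons, gave p = 0.961 (adjusted 0.961) for KlHET NMES against KlHET control brains from 100000 resamples. The exact permutation test gave p = 0.652 (adjusted 0.869) for WT NMES against WT control brains, p = 0.252 (adjusted 0.739) for KlHET control against WT control brains and p = 0.370 (adjusted 0.739) for KlHET NMES against WT NMES brains.

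**Figure D5:**
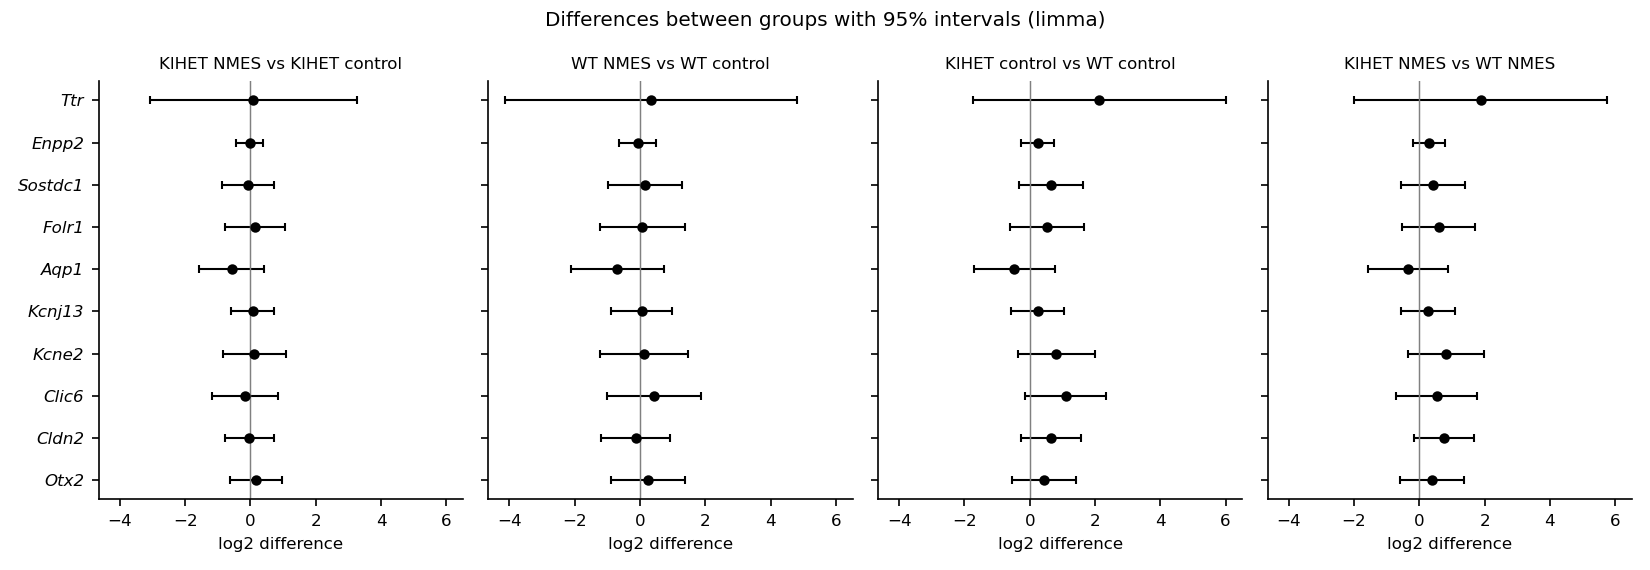
Log2 difference of each member in 4 comparisons, first-named group minus second, with 95% intervals of limma, on log2(CPM + 0.5). All 40 intervals include 0, and those of Ttr are the widest, at -1.74 to 6.01 for KlHET control over WT control brains.

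Muscle of the same mice served as a tissue without choroid plexus. Of the members, *Ttr*, *Enpp2*, *Sostdc1* and *Aqp1* were in the muscle table. *Ttr* was at 0 reads in 27 of 36 muscle libraries. *Aqp1*, which endothelium of muscle also makes, ranged from 325 to 1070 CPM there, above its level in any brain, and *Enpp2* from 6.96 to 29.7 CPM, below its level in any brain.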

How the data were processed

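Brain and muscle total RNA of 72 libraries was sequenced by the authors with paired reads, aligned to mm10 with Rsubread 2.16.1, annotated with org.Mm.eg.db 3.19.1 and processed with edgeR 4.0.16. Whether counting used strand is not stated by the sources at hand, so overlapping and antisense genes cannot be told apart. The authors deposited CPM per library, 1 table per tissue. Their log2 average and annotation columns were deposited too. Of these, the gene symbol, gene identifier, chromosome and cell type columns were used, and a further annotation column was read and not used. All CPM values were whole multiples of 1 read (100% within 1e-06), which gave back the reads (17.0 to 28.0 M per brain library, counting error only). 0 sample columns were left without a sample, and 162 pairs of libraries within groups held no duplicate.

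Groups were compared by limma 3.58.1 under R 4.3.3, with trend and robust variances, on log2(TMM-scaled CPM + 0.5), with 4 group means in 1 model over 36 brain libraries and 15401 genes, 2-sided, Benjamini-Hochberg, threshold 0.05. Fold changes on this scale understate those of low genes. Replicates are mice, numbered in accession order. The procedure was tested on simulated data with a capped spread and with changes only in genes with enough reads. That test does not cover members with few reads or with a wide spread between brains. Alternatives were RLE or total-read scaling, no filter, pseudocounts of 0.1 and 2, edgeR quasi-likelihood, DESeq2 1.42.0, voom weights, only the groups compared, the *Xist* status as a covariate, scores without members, and single libraries left out. A choroid plexus score as covariate was added after seeing the data. The members and lists were chosen with earlier results of these data known. Named genes were the members, the 12 genes most like the score by Spearman rho and up to 4 abundant genes of each list, and further names were chosen after their values were seen. Promoters and loci are from RefSeq GRCm38.p6, exon lengths from GENCODE. A *Ttr* sequence is not printed.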

Additional observations from a re-analysis of the deposited data

Results flagged for a closer look

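Within the groups of 6, 20 sets of values were examined for a library far from the others, and 6 were marked. The sets share the same brains and their CPM values are skewed, so the number marked cannot be set against a rate by chance. *Ttr* was at 94.2 CPM in WT NMES 5, where the next WT NMES brain had 3.09 CPM, and at 64.7 CPM in WT control 4, where the next WT control brain had 1.22 CPM. The same brains stood out for other members: *Folr1* was at 1.42 CPM and *Kcne2* at 0.559 CPM in WT NMES 5, and *Kcne2* was at 0.270 CPM in WT control 4. *Cldn2* was low in WT control 1, at 0.0901 CPM (2 reads), against 0.301 CPM (7 reads) in the nearest WT control brain. The *Kcne2* value of WT control 4 rested on 5 reads, against 2 reads in the next WT control brain. At so few reads counting error is large, and these 2 marks say little about the brains.

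In muscle, data that the brain comparisons do not use, *Ttr* was at 110.7 CPM (2019 reads) in KlHET NMES 3, above the highest control muscle at 1.90 CPM. That muscle library was also the highest of 36 for *Enpp2* (29.7 CPM, next 21.5 CPM) and *Car12*, a carbonic anhydrase (1.64 CPM, next 1.01 CPM), while *Sostdc1* was at 0.932 CPM, within the range of the others. The brain of the same mouse was among the *Ttr*-rich ones (849 CPM). The source of the muscle signal was not tested.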

How the results depend on the processing

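The count of members past the threshold was 0 under each of the alternatives but one and with every single library left out. That one, with the score as covariate, left the members out of the count. A missing adjusted p was counted as not passing. DESeq2 gave *Ttr* no adjusted p in any comparison, so its count says nothing about *Ttr*. The *Ttr* difference between KlHET NMES and KlHET control brains, near 0, turned to -0.14 with a pseudocount of 0.1, -0.0187 with edgeR and -0.0261 with DESeq2, and ranged from -0.48 to 0.75 with single libraries left out. Leaving out single libraries gave -0.64 to 1.29 for the *Ttr* difference in WT mice, -0.27 to 0.69 over both genotypes and -1.20 to 0.72 for the difference of responses. The median of the members for KlHET control over WT control brains was 1.71 with edgeR and 1.69 with DESeq2. Of all genes, 11 passed for KlHET control against WT control brains, 56 with DESeq2, 45 with voom weights and 3 with only the groups compared, and 4 (without WT control 6) to 19 (without KlHET control 1) with single libraries left out. For KlHET NMES against WT NMES brains 15 passed, 32 with DESeq2, 36 with voom weights, 3 with only the groups compared, and 3 (without WT NMES 6) to 16 with single libraries left out. Voom weights called 1 gene for KlHET NMES against KlHET control brains. With each library's choroid plexus score added as covariate, 16 and 21 genes passed in the genotype comparisons and 0 in the NMES comparisons. The causes were not tested. No paired analysis was possible because the labels carry no replicate numbers shared between groups. *Kcne2*, *Cldn2* and *Folr1* rest on few reads outside the *Ttr*-rich brains, which limits their precision.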
